A study of Mus musculus with 12 samples.

Results

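The miR-34 and miR-449 miRNAs were followed across 5 mouse cell types by small RNA sequencing. Every entry of the deposited table named as an arm of miR-34a, miR-34b, miR-34c, miR-449a, miR-449b or miR-449c was taken, whatever its level. An arm is the 5p or the 3p side of a miRNA hairpin. This gave 10 of the 1042 miRNAs listed, 6 arms of miR-34 (mmu-miR-34a-5p, mmu-miR-34a-3p, mmu-miR-34b-5p, mmu-miR-34b-3p, mmu-miR-34c-5p and mmu-miR-34c-3p) and 4 entries of miR-449 (mmu-miR-449a-5p, mmu-miR-449a-3p, mmu-miR-449b and mmu-miR-449c-5p). The species prefix is left out from here on. Of these, 8 had at least 10 reads in at least 2 libraries and were tested together with all other such miRNAs, 732 in total. MiR-34a-3p and miR-449c-5p reached this minimum through the reprogrammed libraries alone, so their rise there was favoured by the filter, and the main counts and medians are also given without them. The remaining entries, miR-449a-3p and miR-449b, held too few reads for the test.

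The 5 cell types were mouse embryonic fibroblasts (MEFs, 3 libraries, C57B6/129SvJae F1), embryonic stem cells (ESCs, 3 libraries, line E14, strain 129/ola), and 3 kinds of reprogrammed pluripotent cells of the C57B6/129SvJae F1 background with 2 libraries each. The induced pluripotent stem cells (iPSCs) had received Oct4, Sox2, Klf4 and c-Myc on a lentivirus switched on by doxycycline. NT-ESCs came from MEFs by nuclear transfer, and NT-iPSCs from the nucleus of an iPSC placed in an oocyte without its own nucleus. All pluripotent cells grew on irradiated MEF feeders with leukaemia inhibitory factor, and the reprogrammed lines came from the same MEFs. Libraries of a cell type were RNA batches of 1 line, so p-values measure the spread between batches and not between lines, and ESCs differed from all other cells in strain. Since RNA was taken in bulk, fewer cells holding a miRNA and less of it per cell cannot be told apart.

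The miR-34 genes are known as direct transcriptional targets of p53, and their products hold back the cell cycle and favour senescence and cell death. Loss of miR-34 has been reported to ease the reprogramming of fibroblasts. The miR-449 genes sit in an intron of Cdc20b and are best known from multiciliated epithelia. Both groups carry the same seed, the stretch near the 5′ end that a miRNA uses to pair with its target transcripts, and they can therefore act on overlapping targets.

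Mature sequences from RefSeq (GRCm38.p6) were found for 8 of the 10 members, and miR-34c-5p and miR-449b were not matched. The 5p arms are shown first because they share the seed that defines the family. Bases 2 to 8, the seed, are in capitals.
miR-34a-5p: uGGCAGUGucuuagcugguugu
miR-34b-5p: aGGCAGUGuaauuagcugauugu
miR-449a-5p: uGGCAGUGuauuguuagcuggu
miR-449c-5p: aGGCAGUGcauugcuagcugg
Among 804 miRNAs of the table with a mature sequence, GGCAGUG stood at bases 2 to 8 in these 4 alone. The 3p arms are shown because several moved apart from their 5p partners.
miR-34a-3p: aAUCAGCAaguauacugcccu
miR-34b-3p: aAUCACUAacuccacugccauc
miR-34c-3p: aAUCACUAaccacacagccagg
miR-449a-3p: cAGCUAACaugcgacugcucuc
The seed AUCACUA was held by miR-34b-3p and miR-34c-3p, whereas those of miR-34a-3p and miR-449a-3p occurred once each among the 804.

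In the GRCm38 annotation, Mir34a lies at chr4:150068454-150068555 on the plus strand, and its end overlaps an exon of Gm37795, a transcript of unsettled type. Mir34c (chr9:51103034-51103110) and Mir34b (chr9:51103562-51103645) are neighbours on the minus strand, inside an intron of Btg4, which runs on the plus strand. Mir449c (chr13:113035983-113036091), Mir449b (chr13:113037419-113037498) and Mir449a (chr13:113037534-113037624) lie on the plus strand within intronic sequence of Cdc20b, which has the same strand. The miR-34a hairpin is shown in full, with the 3p arm in capitals, because both of its arms are compared.
Mir34a hairpin: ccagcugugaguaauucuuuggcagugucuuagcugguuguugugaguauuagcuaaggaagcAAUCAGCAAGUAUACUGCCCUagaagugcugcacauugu

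Each library held 4863365 to 8608689 miRNA reads, with the most in those from MEFs. The authors' sequencing summary lists the most total reads for the reprogrammed libraries. In it these libraries also stand apart from the others in the shares of adaptor-related tags removed. A floor of 3 reads per library was used, which is 0.348 to 0.617 CPM (reads scaled to the total of miRNA reads) and covers counting error only. Levels are given as whole reads recovered from the deposited values, as reads divided by the authors' size factors (normalised reads), or as the deposited variance stabilised value (VST), which is on a log2 scale and compresses changes at low read numbers. Of 9 pluripotency markers from the miR-290 and miR-302 clusters, the summed level was 0.869 to 10.9 CPM in MEFs and 90612 to 172093 CPM in the other cells, and 4 of the 9 were at or below 3 reads in every MEF library. The sum of the skeletal muscle markers miR-1a-3p, miR-133a-3p and miR-206-3p was 106535 to 126933 CPM for MEFs, whereas ESCs had 489 to 569 CPM and reprogrammed cells 1844 to 2520 CPM. In MEFs it was mostly miR-206-3p, which held 268 to 400 CPM in ESCs and 124 to 373 CPM in reprogrammed cells, where miR-1a-3p (1467 to 2374 CPM, against 146 to 220 CPM in ESCs) made up most of it. The labels name no library batch. However, the balance between the arms of a hairpin, which no scaling between libraries can alter, moved across the whole table. Over 108 hairpins with at least 10 reads on both arms in every library, the median absolute change in log2 of 5p over 3p reads was 2.02 between reprogrammed cells and ESCs, against 0.50 between MEFs and ESCs. The 6 reprogrammed libraries hold only reprogrammed cells, so a difference in library handling and a difference in cell type cannot be told apart.

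In reprogrammed cells, 6 of the 8 tested arms rose compared with ESCs and miR-34c-5p fell, whereas miR-34a-5p did not pass the test. The size of the rise in mean normalised reads was 101-fold for miR-449c-5p, 32.4-fold for miR-449a-5p, 25.4-fold for miR-34a-3p and 19.3-fold for miR-34b-5p. It was 4.21-fold for miR-34b-3p and 1.64-fold for miR-34c-3p, and miR-34c-5p was 1.58-fold higher in ESCs. The 7 calls have to be read against a table in which 82% of all miRNAs tested passed the limma test in this comparison, 44% as higher and 38% as lower. The median difference of the 8 arms was 3.13 on the VST scale, beside 0.24 over all 732 miRNAs. Over the 6 arms that met the minimum of reads within the MEF and ESC libraries, of which 4 rose and 1 fell, it was 1.36, beside -0.15 over the 644 miRNAs that did so. The share of those 644 that passed was not counted. Only 2.6% of all miRNAs tested differed as much as miR-449c-5p in either direction. The corresponding share was 11.1% for miR-449a-5p, 11.9% for miR-34a-3p and 15.8% for miR-34b-5p, but 49.2% for miR-34b-3p and over that for the other arms. The folds and shares of miR-449c-5p and miR-34a-3p were favoured by the filter. They rest on 1 to 5 and on 2 to 6 reads per ESC library.

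**Figure D1:**
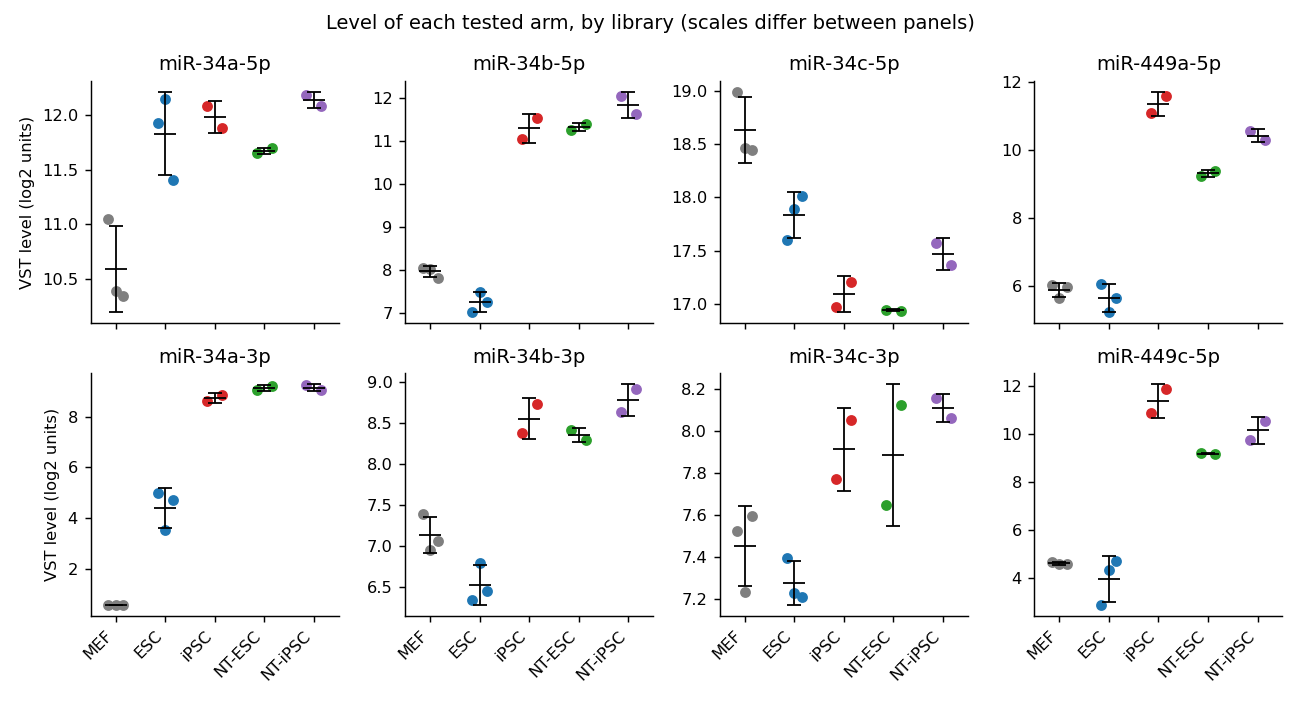
Deposited VST level (log2 units) of each tested arm in every library, by cell type. Points are libraries, and black bars give the mean and SD of each cell type (n = 3 for MEFs and ESCs, n = 2 for the others). The vertical scales differ between panels. In the panels of miR-34b-5p, miR-449a-5p and miR-449c-5p all 6 reprogrammed libraries stand above all MEF and ESC libraries, and in that of miR-34c-5p all 6 stand below them.

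MiR-34a is expressed from a gene of its own and is the member most often used as a readout of p53 activity. Its 5p arm held 372, 253 and 237 reads in the MEF libraries, 801, 1051 and 580 in ESCs, 1367 and 1189 in iPSCs, 1076 and 876 in NT-ESCs, and 1319 and 1213 in NT-iPSCs. Every pluripotent library was above every MEF library, and the reprogrammed libraries overlapped those of ESCs on the VST scale. The order of the mean levels was NT-iPSCs (VST 12.13), iPSCs (11.98), ESCs (11.83), NT-ESCs (11.67) and MEFs (10.59), and among the 4 pluripotent types no pair passed the test. With scaling by total miRNA reads, however, iPSCs passed as higher than ESCs (0.57, limma adjusted p = 0.041). MEFs were lower than ESCs by a VST difference of -1.24 ± 0.23 (SE, limma adjusted p = 0.000395). The reprogrammed mean was above MEFs by 1.34 ± 0.20 (SE, limma adjusted p = 4.78e-05). Against ESCs the difference was 0.10, with a 95% interval from -0.33 to 0.53.

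The 3p arm of miR-34a, the strand of the duplex that is normally the rarer, was not seen in MEFs, with 0 reads in each of the 3 libraries. It held 6, 2 and 5 reads in ESCs, 123 and 148 in iPSCs, 177 and 157 in NT-ESCs, and 171 and 149 in NT-iPSCs. The 6 reprogrammed libraries thus lay together, far above all others, while ESCs stood close to the floor of 3 reads. The reprogrammed mean was above ESCs by a VST difference of 4.60 ± 0.33 (SE, limma adjusted p = 1.10e-07). Set against the MEF floor, the level was at least 31.7-fold higher in normalised reads. MEFs were also called lower than ESCs for this arm (VST difference -3.83, limma adjusted p = 2.5e-06), but with so few reads in ESCs the bound is only at least 1.25-fold. The 3p arm therefore rose in reprogrammed cells against ESCs while its 5p partner did not pass the test.

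MiR-34b and miR-34c are the neighbouring hairpins on chromosome 9 and are thought to be cut from 1 primary transcript. MiR-34c-5p was by far the most abundant member. It held 92067, 68685 and 65822 reads in MEFs, 40724, 56360 and 56597 in ESCs, 40474 and 47865 in iPSCs, 42159 and 33120 in NT-ESCs, and 55329 and 47169 in NT-iPSCs. By reads it ranked between 14th and 35th of all miRNAs in the 12 libraries. After normalisation all reprogrammed libraries were below all ESC libraries, and these below all MEF libraries. The reprogrammed mean was lower than ESCs by a VST difference of -0.67 ± 0.15 (SE, limma adjusted p = 0.00163) and lower than MEFs by -1.47 ± 0.15 (SE, limma adjusted p = 2.25e-06). Among single cell types, NT-iPSCs did not pass the test against ESCs (difference -0.37, 95% interval -0.80 to 0.07), but did once MEF replicate 13 was left out (limma adjusted p = 0.0475), with scaling by total miRNA reads (-0.49, adjusted p = 0.0163) and with TMM-type scaling (-0.57, adjusted p = 0.0347). With scaling by total miRNA reads the difference of the reprogrammed mean from MEFs shrank to -0.46 (limma adjusted p = 0.00448), or from 2.78-fold in normalised reads to 1.37-fold in CPM. The same scaling left iPSCs without a call against ESCs (difference -0.33, limma adjusted p = 0.0845) or against MEFs (-0.24, adjusted p = 0.19), while the direction held.

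MEFs were above ESCs for miR-34c-5p by 0.80 ± 0.18 (SE, limma adjusted p = 0.00147) on the deposited scale, but this direction was set by the scaling. By total miRNA reads the mean level was 9199 CPM ± 1325 (SD, n = 3) in MEFs and 9801 CPM ± 1445 (SD, n = 3) in ESCs. Scaling by total miRNA reads shifted log2 normalised reads by -0.89 between MEFs and ESCs and turned the difference to -0.091, which did not pass. The pluripotent cells were grown on MEF feeders. In ESCs miR-34c-5p was near its MEF level in CPM, whereas the muscle markers that abound in these MEFs were there at 489 to 569 CPM. The fibroblast marker sum was 57681 to 88277 CPM for MEFs, 38496 to 42728 CPM for ESCs and 11313 to 37404 CPM for reprogrammed cells, and none of the 6 was at or below the floor in any cell type. Its members went different ways. MiR-143-3p, most of the sum in MEFs and ESCs, was at 1163 to 3465 CPM in reprogrammed cells, whereas miR-199a-3p, most of the sum there, was at 9942 to 33868 CPM in them, 7333 to 10808 CPM in MEFs and 1356 to 1707 CPM in ESCs. The part of feeder RNA in these levels was not tested.

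MiR-34b-5p behaved unlike its neighbour. It held 46, 49 and 41 reads in MEFs and 26, 41 and 32 in ESCs, but 667 and 932 in iPSCs, 816 and 707 in NT-ESCs, and 1197 and 880 in NT-iPSCs. No reprogrammed library came near the range of MEFs and ESCs. The reprogrammed mean was above ESCs by 4.23 ± 0.17 (SE, limma adjusted p = 9.95e-10) and above MEFs by 3.52 ± 0.17 (SE, limma adjusted p = 2.97e-09). On the deposited scale the order was NT-iPSCs, NT-ESCs, iPSCs, MEFs and ESCs, and no 2 reprogrammed types passed the test of their difference. In CPM, iPSCs (139.5) stood above NT-ESCs (110.6) and ESCs (6.27) above MEFs (5.55).

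The 3p arms of this cluster rose less. MiR-34b-3p held 29, 23 and 24 reads in MEFs, 16, 25 and 18 in ESCs, and 82 to 134 in the 6 reprogrammed libraries. Its reprogrammed mean was 2.03 ± 0.20 above ESCs (SE, limma adjusted p = 1.66e-06) and 1.42 ± 0.20 above MEFs (SE, limma adjusted p = 3e-05). MiR-34c-3p, the partner of the most abundant member, held only 28 to 35 reads in the MEF and ESC libraries and 66 to 83 in the reprogrammed ones. It was 0.69 ± 0.19 above ESCs (SE, limma adjusted p = 0.00538) and 0.52 ± 0.19 above MEFs (SE, limma adjusted p = 0.0229), and the second call was lost without MEF replicate 14 (difference 0.41, adjusted p = 0.0966) or NT-ESC replicate 72 (difference 0.44, adjusted p = 0.0548).

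The ratio of the neighbouring 5p arms does not depend on scaling. For 1000 reads of miR-34c-5p the reads of miR-34b-5p numbered 0.612 ± 0.107 in the 3 MEF libraries, 0.644 ± 0.0812 in the 3 ESC libraries and 19.5 ± 1.89 in the 6 reprogrammed ones (mean ± SD), with 16.5 to 21.6 in single reprogrammed libraries. The ratio was thus alike in MEFs and ESCs, although their miR-34b-5p reads numbered only 26 to 49. MiR-34b-5p and miR-34c-5p are known to be closely alike in sequence, and how the authors' counting divided reads between such arms is not given in the sources used here. The part of misassigned miR-34c-5p reads in the low counts of miR-34b-5p was not tested.

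MiR-449a-5p and miR-449c-5p come from the Cdc20b intron. MiR-449a-5p held 11, 9 and 11 reads in MEFs and 13, 8 and 10 in ESCs, which is 8.02 to 14.7 normalised reads. In iPSCs it stood at 512 and 724 normalised reads, in NT-ESCs at 140.1 and 155, and in NT-iPSCs at 351 and 289. MiR-449c-5p held 4 reads in each MEF library and 1, 4 and 5 in ESCs, against 594 and 1181 in iPSCs, 196 and 154 in NT-ESCs, and 247 and 424 in NT-iPSCs. In MEFs and ESCs miR-449c-5p was thus close to the floor of 3 reads and miR-449a-5p somewhat above it, and both were far above it in every reprogrammed library. The reprogrammed mean exceeded ESCs by 4.73 ± 0.22 for miR-449a-5p (SE, limma adjusted p = 2.62e-09) and by 6.26 ± 0.38 for miR-449c-5p (SE, limma adjusted p = 2.88e-08). It exceeded MEFs by 4.48 ± 0.22 (SE, limma adjusted p = 2.75e-09) and 5.62 ± 0.38 (SE, limma adjusted p = 4.98e-08).

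The other entries of the miR-449 cluster were nearly absent. MiR-449a-3p had 0 reads in all MEF and ESC libraries, and 5 and 12 reads in iPSCs, 4 and 0 in NT-ESCs, and 1 and 6 in NT-iPSCs. MiR-449b, whose hairpin lies 35 bases from that of miR-449a, had 1 read in 1 NT-iPSC library and 0 in the other 11 libraries. In the reprogrammed libraries miR-449a-5p and miR-449c-5p stood close to each other, with 0.823 to 1.74 reads of the first for each read of the second. Since miR-449 is known from epithelia, the epithelial markers of the miR-200 family (5 miRNAs) are given beside it: they summed to 121 to 176 CPM for MEFs, 4036 to 5643 CPM for ESCs and 1191 to 2224 CPM for reprogrammed cells, with none at or below the floor. Of the 5, miR-200a-3p was higher in reprogrammed cells (601 to 1219 CPM) than in ESCs (421 to 526 CPM) and the others lower. Neural markers (miR-124-3p, miR-9-5p and miR-128-3p) summed to 1345 to 1694 CPM over MEFs and ESCs and to 2806 to 4729 CPM over reprogrammed cells, where miR-124-3p and miR-128-3p were higher than in MEFs and ESCs but miR-9-5p lower (93.3 to 221 CPM, against 1243 to 1534 CPM), and the part of either marker group in the result was not tested.

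**Figure D2:**
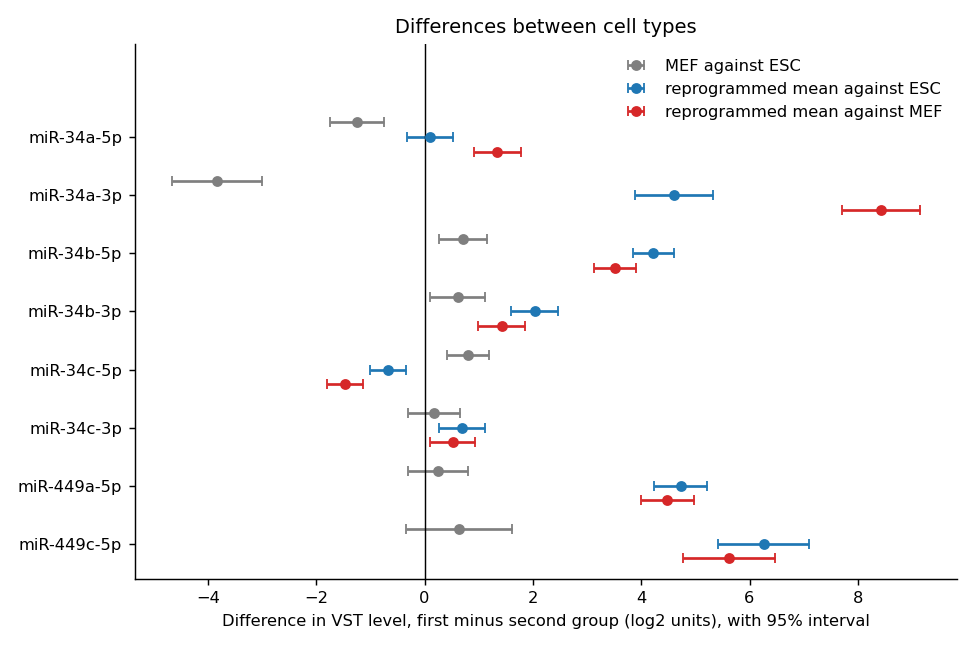
Differences in VST level (log2 units) between cell types for the 8 tested arms, with 95% intervals from the limma model of all 12 libraries. Points right of 0 are higher in the first group named. The reprogrammed mean lies right of 0 against both ESCs and MEFs for 6 arms, left of 0 for miR-34c-5p, and against ESCs the interval of miR-34a-5p spans 0.

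Between the reprogrammed types few arms were called, at shares of the 8 that lay near or below those of all miRNAs called in either direction. NT-ESCs were below iPSCs by -2.04 ± 0.31 for miR-449a-5p (SE, limma adjusted p = 0.00105) and by -2.18 ± 0.54 for miR-449c-5p (SE, limma adjusted p = 0.0141), or 4.19-fold and 4.81-fold in normalised reads. These were 2 of the 8 tested arms, where 25.7% of all miRNAs passed, 13.1% as lower in NT-ESCs. The call for miR-449c-5p was lost without iPSC replicate 63 (difference -1.68, adjusted p = 0.103), NT-ESC replicate 71 (difference -2.18, adjusted p = 0.0727) or NT-ESC replicate 72 (difference -2.17, adjusted p = 0.0698). NT-iPSCs stood between the other reprogrammed types for both arms. For miR-449a-5p they were below iPSCs by -0.93 ± 0.31 (SE, limma adjusted p = 0.048) and above NT-ESCs by 1.11 ± 0.31 (SE, limma adjusted p = 0.0407), each the only arm called of 8. Of all miRNAs, 26.5% passed in the first of these comparisons (13.1% as lower in NT-iPSCs) and 12.8% in the second (5.6% as higher). Both of these calls lie at the threshold, and the second was lost with scaling by total miRNA reads (0.93, adjusted p = 0.0692) and with TMM-type scaling (1.02, adjusted p = 0.0587). Without MEF replicate 15, ESC replicate 4 or any 1 library of NT-ESCs or NT-iPSCs, the adjusted p of the first lay between 0.0585 and 0.211 and that of the second between 0.0505 and 0.177, and leaving out iPSC replicate 62 or 63 gave the first an adjusted p of 0.0541 or 0.259. MiR-449c-5p was not called between NT-iPSCs and iPSCs (-1.20, limma adjusted p = 0.14), but passed without ESC replicate 2 (adjusted p = 0.0418) and with scaling by total miRNA reads (-1.75, adjusted p = 0.0227), which shifted log2 normalised reads by -0.54 in this comparison. For the 6 miR-34 arms no difference between reprogrammed types passed, with the largest difference, that of miR-34b-5p between NT-iPSCs and iPSCs, at 0.55 (limma adjusted p = 0.14). With scaling by total miRNA reads, however, miR-34c-5p passed as lower in NT-ESCs than in iPSCs (-0.51, limma adjusted p = 0.048), and with log2 of CPM plus 0.5 so did miR-34a-5p (-0.67, adjusted p = 0.0481).

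The single reprogrammed types make up the mean and share the same ESC and MEF libraries, so they are no separate test of it. They mostly showed its pattern. Against ESCs, 7 arms passed in iPSCs and in NT-ESCs, where 75.8% of all miRNAs passed in each, and 6 in NT-iPSCs, where 77.6% passed. The rise of miR-34c-3p was the weakest of these. Its difference was 0.63 in iPSCs (limma adjusted p = 0.034), 0.61 in NT-ESCs (0.0408) and 0.83 in NT-iPSCs (0.00899). It lost the threshold in iPSCs without ESC replicate 3 or 4 or iPSC replicate 63 (adjusted p = 0.0664, 0.0707 and 0.173), in NT-ESCs without ESC replicate 2, 3 or 4 or NT-ESC replicate 72 (adjusted p = 0.0507, 0.0781, 0.0825 and 0.296), and in NT-iPSCs without NT-iPSC replicate 51 (adjusted p = 0.0501). With TMM-type scaling it passed in neither iPSCs (0.51, limma adjusted p = 0.0899) nor NT-ESCs (0.50, adjusted p = 0.0952).

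Against MEFs, all 8 tested arms passed for the reprogrammed mean, 7 higher and miR-34c-5p lower, where 88.9% of all miRNAs passed, 48.5% as higher and 40.4% as lower. The median difference of the 8 was 2.47, beside 0.40 over all miRNAs. Over the 6 arms that met the minimum of reads within the MEF and ESC libraries it was 1.38, beside -0.16 over the 644 such miRNAs, and 5 were higher and 1 lower. The share of those 644 that passed was not counted here either. In single types, 7 arms passed in iPSCs (87.8% of all miRNAs passed) and in NT-ESCs (84%), with miR-34c-3p not called (differences 0.46 and 0.43), and all 8 in NT-iPSCs (83.1%). MiR-34c-3p was called as higher in both with scaling by total miRNA reads (1.75 in iPSCs, limma adjusted p = 2.22e-05, and 1.36 in NT-ESCs, adjusted p = 0.000189) and with TMM-type scaling (0.79, adjusted p = 0.0124, and 0.78, adjusted p = 0.0139). The call of miR-34c-3p in NT-iPSCs (difference 0.66, limma adjusted p = 0.0267) was lost without MEF replicate 14, NT-iPSC replicate 51 or NT-iPSC replicate 52 (adjusted p = 0.0757, 0.106 and 0.0662). The share of calls that were higher in reprogrammed cells, over all miRNAs, was 54.5%, and 65.6% with scaling by total miRNA reads. That scaling shifted log2 normalised reads by 1.01 towards reprogrammed cells, and with it miR-34a-5p was 2.35 above MEFs, miR-34b-3p 2.41 and miR-34c-3p 1.51.

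Between MEFs and ESCs, 3 of the 8 tested arms were higher in MEFs (miR-34b-5p, miR-34b-3p and miR-34c-5p) and 2 lower (both arms of miR-34a), where 79% of all miRNAs passed, 39.1% as higher and 39.9% as lower. Of all miRNAs, 17.5% differed at least as much as miR-34a-3p, 61.1% at least as much as miR-34a-5p and 74.3% at least as much as miR-34c-5p. MiR-34b-5p was 0.71 ± 0.20 higher (SE, limma adjusted p = 0.0075) and miR-34b-3p 0.61 ± 0.23 higher (SE, limma adjusted p = 0.0291). With scaling by total miRNA reads neither passed and both lay below 0 (-0.17 and -0.26). The call of miR-34b-3p was also lost without MEF replicate 13 (difference 0.48, adjusted p = 0.101), ESC replicate 2 (0.51, adjusted p = 0.0895) or ESC replicate 4 (0.57, adjusted p = 0.0701). MiR-449a-5p, miR-449c-5p and miR-34c-3p were not called, with 95% intervals from -0.31 to 0.81, from -0.34 to 1.62 and from -0.31 to 0.66. With scaling by total miRNA reads, miR-34c-3p (-0.70, limma adjusted p = 0.0101) and miR-449a-5p (-0.59, adjusted p = 0.0476) were called as lower in MEFs. That scaling thus called 4 arms, all lower in MEFs, the other two being those of miR-34a. Over all miRNAs, 49.5% of the calls were higher in MEFs, but 29.6% with scaling by total miRNA reads and 38.9% with TMM-type scaling. The lower level of miR-34a-5p in MEFs held its direction under every scaling tried (-2.13 to -0.99).

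The 5p arms were next summed within each library. As a share of all miRNA reads, the 5p arms together made up 0.924% ± 0.133 in the 3 MEF libraries, 0.996% ± 0.142 in the 3 ESC libraries and 0.717% ± 0.124 in the 6 reprogrammed ones (mean ± SD). The order of MEFs and ESCs depended on the scaling, since miR-34c-5p, the bulk of this sum, averaged 95970 normalised reads in MEFs and 54604 in ESCs. The make-up of the sum within a library does not depend on it. MiR-34c-5p took 99.5 to 99.6% of this sum in MEFs, whereas ESCs gave it 97.98 to 98.9% and reprogrammed cells 91.8 to 94.8%. The other 5p arms together thus made up 0.456% ± 0.0125 in MEFs and 1.68% ± 0.509 in ESCs (mean ± SD, n = 3 each). Among reprogrammed cells the figure was 7.91% ± 0.449 for iPSCs, 5.31% ± 0.22 for NT-ESCs and 5.59% ± 0.193 for NT-iPSCs (mean ± SD, n = 2 each). MiR-34a-5p alone made up 0.376% ± 0.0232 of the 5p sum in MEFs and 1.59% ± 0.502 in ESCs (SD, n = 3 each), and miR-34b-5p 0.0609% ± 0.0107 and 0.0633% ± 0.00774. In reprogrammed cells it was divided among miR-34a-5p (2.5% ± 0.318 of the 5p sum, SD, n = 6), miR-34b-5p (1.83% ± 0.191) and the miR-449 arms (1.94% ± 1.33), and the last ran from 0.895% in 1 NT-ESC library to 4.16% in 1 iPSC library. These shares are given as a description.

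**Figure D3:**
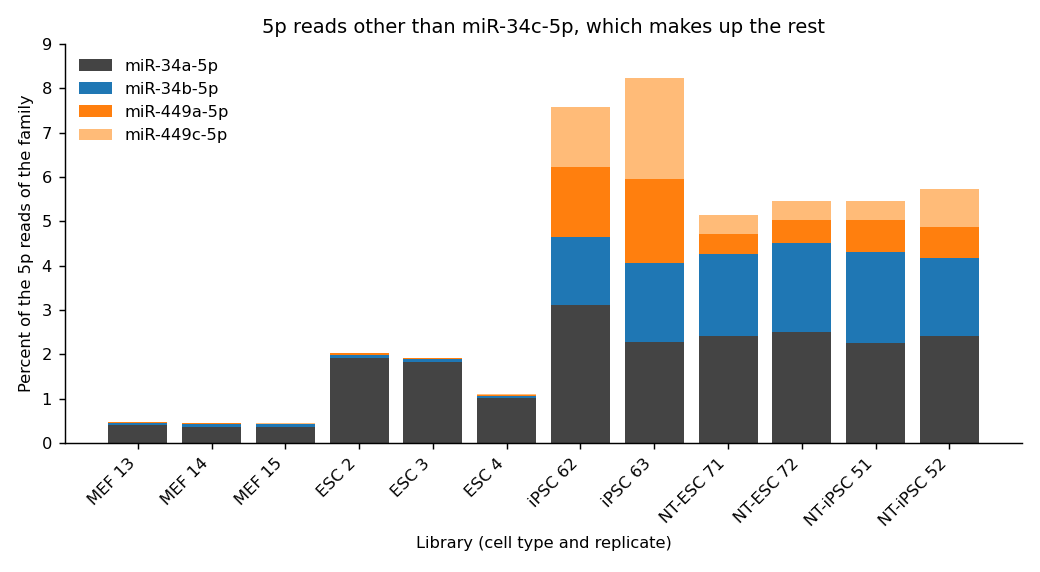
Percent of the family's 5p reads that were not miR-34c-5p, for each of the 12 libraries, divided by member. The bars reach 0.443 to 0.468% for MEFs, 1.1 to 2.02% for ESCs and 5.15 to 8.22% for reprogrammed cells, and only the reprogrammed bars show visible parts of miR-34b-5p, miR-449a-5p and miR-449c-5p.

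The balance between the 2 arms of a hairpin was compared where both arms had at least 10 reads in every library, which left miR-34b and miR-34c. For miR-34b there were 1.59 to 2.13 reads of the 5p arm for each read of the 3p arm in MEFs and 1.63 to 1.78 in ESCs, and 6.41 to 10.7 once reprogrammed. For miR-34c the ratio was 1881 to 2877 for MEFs, 1198 to 1826 for ESCs and 454 to 692 for reprogrammed cells. Neighbouring hairpins therefore moved in opposite directions in reprogrammed cells, miR-34b towards its 5p arm and miR-34c towards its 3p arm.

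On the log2 scale, the balance of miR-34b was 2.93 ± 0.28 in reprogrammed cells (SD, n = 6) and 0.75 ± 0.071 in ESCs (SD, n = 3), a difference of 2.18 (two-sided exact permutation test, p = 0.0119, adjusted p = 0.0238). That of miR-34c was 9.21 ± 0.21 (SD, n = 6) and 10.59 ± 0.32 (SD, n = 3), a difference of -1.37 (two-sided exact permutation test, p = 0.0119, adjusted p = 0.0238). This p is the smallest that the 84 arrangements of 6 and 3 libraries can give, and leaving out any ESC library leaves an adjusted p of 0.0714 for both. MEFs differed from the 9 pluripotent libraries by 1.54 for miR-34c (two-sided exact permutation test, p = 0.00455, adjusted p = 0.0238) and by -1.36 for miR-34b (exact permutation p = 0.118, adjusted p = 0.142). Between MEFs and ESCs the differences were 0.62 for miR-34c (exact permutation p = 0.1, the smallest that 3 against 3 can give) and 0.10 for miR-34b (exact permutation p = 0.7). Among the 108 hairpins measured in the same way, 48.1% changed at least as much as miR-34b between reprogrammed cells and ESCs, and 63.9% at least as much as miR-34c, so neither change was large beside the rest of the table. The median signed change of the 108 was -0.64, towards the 3p arm, which is the direction of miR-34c and not of miR-34b.

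MiR-34a had too few 3p reads in MEFs and ESCs for this test, and its arms are given as a description. The 3p arm made up 0.596% ± 0.356 of the hairpin's reads in ESCs (SD, n = 3). Among reprogrammed cells it took 9.66% ± 1.99 for iPSCs, 14.7% ± 0.758 for NT-ESCs and 11.2% ± 0.38 for NT-iPSCs (mean ± SD, n = 2 each). In MEFs it was 0 of 237 to 372 reads per library, which allows a share of up to 0.806 to 1.27%. MiR-34a thus moved towards its 3p arm in the reprogrammed libraries, as did miR-34c and the median of the 108 hairpins measured (-0.64 against ESCs).

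**Figure D4:**
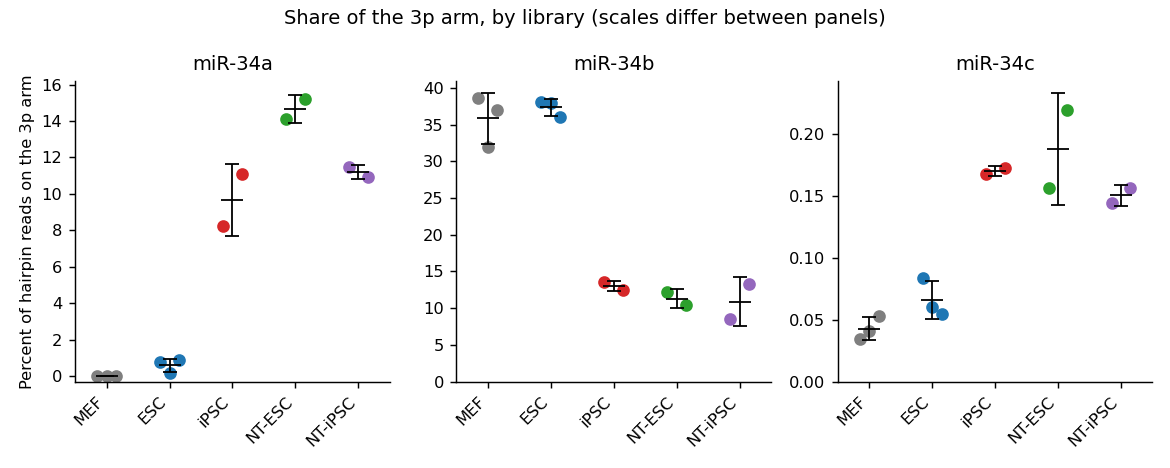
Percent of a hairpin's reads that came from the 3p arm in each library, for miR-34a, miR-34b and miR-34c. Points are libraries, black bars give the mean and SD (n = 3 for MEFs and ESCs, n = 2 for the others), and the scales differ between panels. Reprogrammed libraries lie at 8.26 to 15.2% for miR-34a, against at most 0.855% elsewhere, and at 8.56 to 13.5% for miR-34b, against 31.9 to 38.7% elsewhere.

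Similarity of pattern was measured by Pearson's r of the VST values over the 12 libraries, which fall into separate sets of libraries, so r is a description only. Within the family, r was 0.98 between miR-449a-5p and miR-449c-5p, 0.98 between the arms of miR-34b and 0.95 between miR-34b-5p and miR-449a-5p. It was 0.78 between the arms of miR-34a and -0.58 between those of miR-34c. Between the cluster neighbours miR-34b-5p and miR-34c-5p it was -0.72. Outside the family, the 3 miRNAs most like miR-34a-5p were miR-741-5p (r = 0.98), miR-881-3p (0.93) and miR-291a-5p (0.93). Those most like miR-34a-3p were miR-92b-3p, miR-25-5p and miR-18b-3p (0.99 each).

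For miR-34b-5p the nearest were miR-129-2-3p, miR-598-3p and miR-329-3p (r = 0.99 each), and for miR-34b-3p they were miR-1193-5p (0.99), miR-219-5p (0.98) and miR-382-3p (0.98). MiR-34c-5p was most like miR-137-3p (0.96), miR-21-5p (0.95) and miR-351-5p (0.95), and miR-34c-3p most like miR-23a-3p, miR-412-5p (0.90 each) and miR-29a-3p (0.89). For miR-449a-5p the nearest were miR-302b-5p, miR-433-3p (0.99 each) and miR-665-3p (0.98), and for miR-449c-5p miR-665-3p, miR-376a-3p (0.99 each) and miR-301a-5p (0.98).

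Other miRNAs tied to p53 in the literature are given for comparison. Of 16 listed, 14 were tested, and against ESCs 6 were higher, 7 lower and 1 not called in reprogrammed cells. Of all miRNAs 82% passed, 44% as higher and 38% as lower. The median difference of the 14 was -0.69, beside 0.24 over all miRNAs. Those reported as raised by p53 at transcription included miR-107-3p, which was 5.96 ± 0.16 higher (SE, limma adjusted p = 6.4e-11), and miR-141-3p, which was 4.37 lower (difference -4.37 ± 0.36, SE, limma adjusted p = 3.85e-07). In all, 3 of the 7 tested in that list were higher and 4 lower. Of the 4 reported as raised by p53 in processing, miR-145-5p was higher, miR-143-3p (-4.22 ± 0.19, SE, limma adjusted p = 2e-09) and miR-16-5p were lower, and miR-16-1-3p was not called. Of the 4 tested that bind the p53 transcript itself, 3 were higher, among them miR-25-3p (4.20 ± 0.15, SE, limma adjusted p = 3.54e-10), and 1 lower.

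Between MEFs and ESCs, 4 of the 14 p53-linked miRNAs were higher in MEFs, 6 lower and 4 not called. Of all miRNAs 79% passed, 39.1% as higher and 39.9% as lower. The median of the 14 was -0.25, beside 0 over all miRNAs. Between reprogrammed cells and MEFs, 4 were higher, 7 lower and 3 not called. Of all miRNAs 88.9% passed, 48.5% as higher and 40.4% as lower. The median of the 14 was -0.54, beside 0.40 over all miRNAs. Between the reprogrammed types, 5 were higher in NT-ESCs than in iPSCs and 0 lower, with a median of 0.46, beside -0.10 over all miRNAs. Of all miRNAs 25.7% passed, 13.1% as lower in NT-ESCs, and 48.9% of the calls were higher. In NT-iPSCs 6 were higher and 2 lower than in iPSCs, with a median of 0.23, beside 0.0015 over all miRNAs. Of all miRNAs 26.5% passed there, 13.1% as lower in NT-iPSCs. Against NT-ESCs 1 was lower in NT-iPSCs, where 12.8% of all passed. These counts and medians are on the deposited scale. Scaling by total miRNA reads shifted log2 normalised reads by -0.36 between NT-ESCs and iPSCs, by -0.54 between NT-iPSCs and iPSCs and by -0.18 between NT-iPSCs and NT-ESCs. The same scaling took the share of calls that were higher, over all miRNAs, from 48.9 to 25.1% in the first of these and from 50.5 to 21% in the second.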

How the data were processed

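The 12 small RNA libraries comprised 3 each of MEFs and ESCs and 2 each of the reprogrammed types. According to the methods and the submitters' processing notes, the authors filtered the tags (adaptors, poor quality, contaminants), annotated what was left, and deposited log2-scale values that had been normalized and variance stabilized with DESeq (build mm8, version and miRBase release not given in the sources used here). Inverting the transformation gave whole reads, within 0.05 read, for 100% of the nonzero values. Between replicate libraries the spread exceeded counting noise.

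VST values were compared with limma (3.58.1, R 4.3.3) in 1 model of all 12 libraries with a mean per cell type and trended empirical Bayes moderation. P-values were adjusted by Benjamini-Hochberg over 732 miRNAs, those reaching 10 reads in 2 or more libraries, with a threshold of 0.05. The reprogrammed mean weighs the 3 types equally. In all 12 comparisons were made. Arm balance was tested with two-sided exact permutations, adjusted over 2 hairpins and 3 comparisons. Summaries used Python 3.11.15, numpy 2.4.6, pandas 2.3.3 and matplotlib 3.10.9. A group with no library above 3 reads was set to 3 reads per library for folds, which are then lower bounds.

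All members are named, with the 3 miRNAs outside the family most alike to each, and up to 2 of the p53-linked lists per direction, to which miR-145-5p, miR-16-5p and miR-16-1-3p were added after their values were seen. The members and lists were chosen with earlier results of these data known. Alternatives were upper quartile, total-read and TMM-type scaling (30% and 5% trimmed), log2 of normalized reads plus 1 or of CPM plus 0.5, voom, no filter, a minimum of 100 reads throughout a group, no trend, the compared groups alone, miR-34b-5p and miR-34c-5p summed, 1 read added to both arms, and each replicate left out. The limma procedure was tested on simulated data. The deposited values are transformed and no count model was run, although voom was run on the recovered reads.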

Additional observations from a re-analysis of the deposited data

Results flagged for a closer look

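MiR-449a-3p was left out of the tests for its low reads, yet it reached 12 reads in 1 iPSC library, against 0 reads in all 6 MEF and ESC libraries and a floor of 3 reads. It had reads in 5 of the 6 reprogrammed libraries (5 and 12 for iPSCs, 4 and 0 for NT-ESCs, 1 and 6 for NT-iPSCs), and its 5p partner held 177 to 987 reads there. Groups of 2 or 3 libraries are too small to look for outlying samples.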

How the results depend on the processing

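Of 96 member differences in the 12 comparisons, 66 passed the limma test. The 33 called differences of at least 3 in size kept their call and direction in all 751 values from other settings. They were picked for their size in these same reads, so this is a description only. Many belong to miR-34a-3p and miR-449c-5p, which met the minimum of reads through the reprogrammed libraries alone. Changes of call lay among smaller differences. Differences that were called before or after the change of setting turned sign only between MEFs and ESCs, while others called in neither also turned, as did that of miR-34a-5p between NT-iPSCs and iPSCs (0.15, but -0.39 with total-read scaling). Between MEFs and ESCs, scaling by total miRNA reads turned miR-34b-3p to -0.26, miR-34b-5p to -0.17, miR-34c-5p to -0.091, miR-34c-3p to -0.70 and miR-449a-5p to -0.59, and log2 of CPM plus 0.5 turned the first 4 to -0.23, -0.16, -0.091 and -0.65. Of these, the values of miR-34c-3p passed in both settings and that of miR-449a-5p with total reads. The number of arms called between MEFs and ESCs was 4 with total-read scaling, 2 with TMM-type scaling and 3 with log2 CPM. Between NT-ESCs and iPSCs it was 4 with log2 CPM, and 1 to 2 without single replicates. Between NT-iPSCs and iPSCs it was 2 with total-read scaling, log2 CPM or voom, 0 without the filter or with only the groups compared, and 0 to 2 without single replicates. Between NT-iPSCs and NT-ESCs it was 0 with total-read or TMM-type scaling, without the filter or with only the groups compared, 2 with voom, and 0 to 1 without single replicates. Without single replicates the arm balance of reprogrammed cells against ESCs ran from 2.09 to 2.23 for miR-34b and from -1.55 to -1.25 for miR-34c, and fewer ESC libraries leave too few arrangements to pass. The cause of the other changes was not tested. The reads of miR-34b-5p and miR-34c-5p summed were followed under miR-34c-5p alone.

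Total-read scaling changed the share of higher calls over all miRNAs from 55.4 to 68.1% for iPSCs and from 54.6 to 66.2% for NT-ESCs against MEFs, from 48.9 to 25.1% for NT-ESCs and from 50.5 to 21% for NT-iPSCs against iPSCs, and from 43.6 to 20.8% for NT-iPSCs against NT-ESCs (23.3% with TMM-type scaling). Depth limits miR-34a-3p and miR-449c-5p in MEFs and ESCs, which lie near 3 reads, and miR-449a-5p, with 8 to 13 reads. No paired analysis was possible because each cell type carries replicate numbers of its own.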
